A study of Mus musculus with 32 samples.

Results

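Genes of the blood vessel wall, 7 in number, were followed through 32 libraries of mouse liver tumours: Cldn5, Cdh5, Pecam1, Esam, Jam2, Emcn and Vwf. They were listed by name as junction and surface genes of endothelial cells, and they are 7 of the 54446 gene identifiers in the count tables. All 7 were counted in every library and passed the filter on low counts in each experiment. Levels are given as log2 CPM, the base 2 logarithm of counts scaled to a common library total (CPM) after TMM scaling (trimmed mean of M values, which corrects for a few genes that take up much of a library), with a prior count of 2. The scaling was done within each experiment, so each treatment was set against its own vehicle libraries.

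Endothelial cells line blood vessels and hold on to each other through tight junctions and adherens junctions. Cdh5 (VE-cadherin) is the adhesion protein of the adherens junction. Cldn5 (claudin 5) seals tight junctions, and Esam and Jam2 are immunoglobulin-like adhesion molecules of the same contacts. Pecam1 (CD31) is an adhesion molecule of the cell borders that leukocytes and platelets carry too. Emcn (endomucin) is a mucin-like glycoprotein of the vessel surface, found most of all in capillaries and veins. Vwf (von Willebrand factor) is a secreted clotting protein that endothelial cells store in Weibel-Palade bodies, and platelets contain it as well. VEGF, acting through the receptor VEGFR2, keeps new vessels alive and loosens their junctions. In normal liver the sinusoids are lined by a specialised, open endothelium that carries little Vwf.

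Tumours were raised in BALB/c mice from BNL-MEA, a cell line of mouse liver cancer that was injected beneath the capsule of the left lobe. The tumour cells are a single line, and the vessel cells came from the host mouse. In the dose experiment, 4 vehicle tumours were set beside 3 from mice given regorafenib orally at 5 mg/kg/day, called the low dose, and 3 at 20 mg/kg/day, called the high dose. Regorafenib is a multikinase inhibitor whose targets include VEGF receptors. A second experiment, named for DC-101, had 4 vehicle, 3 low dose and 3 DC-101 tumours. DC-101 is a blocking antibody to VEGFR2 of the mouse, and 800 ug was injected on days 1, 3 and 5. The third, named for anti-PD1, had 4 groups of 3 tumours: vehicle, low dose, an antibody to the checkpoint receptor PD1 of T cells, and both agents together (combination). Values described as beside DC-101 or beside anti-PD1 are those of vehicle or low dose tumours within these experiments. The animals' age was not given in the sources used here. The labels name each experiment as a batch, and they do not say that libraries of a group came from separate mice, so p-values measure the spread between these libraries. Total counts per library ran from 16767130 to 27693689.

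Each gene was located in the mouse genome, build GRCm38. Cldn5 lies at chr16:18776847-18778262 on the plus strand and has 1 exon of 1416 bases. Cdh5 lies at chr8:104101625-104144511, Esam at chr9:37528078-37538319, Jam2 at chr16:84774123-84825928, Emcn at chr3:137341067-137432185 and Vwf at chr6:125546774-125686679, each on the plus strand. Pecam1 lies at chr11:106654217-106750628 on the minus strand. All are protein coding, and no exon of another annotated gene overlaps theirs. An antisense gene inside Cdh5, Gm29682, had 0 counts, and Gm25908 inside Jam2 had 2 counts over the 32 libraries.

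Promoter sequences from RefSeq (GRCm38.p6) were at hand for 2 of the 7 genes, Cldn5 and Emcn. Each is the 250 bases before RefSeq's start of the gene, 5′ to 3′ on the plus strand, and both are shown since a sequence was at hand for these genes. Capitals mark GGAAG, the core bound by ETS factors such as Erg and Fli1, on either strand (CTTCC is its reverse complement). The Cldn5 window is chr16:18776597-18776846 and the Emcn window is chr3:137340828-137341077.
Cldn5: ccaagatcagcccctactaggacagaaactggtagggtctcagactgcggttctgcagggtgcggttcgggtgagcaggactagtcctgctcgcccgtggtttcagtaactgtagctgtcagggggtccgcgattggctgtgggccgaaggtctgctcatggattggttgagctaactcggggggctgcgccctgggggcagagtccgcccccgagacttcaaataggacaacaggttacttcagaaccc
Emcn: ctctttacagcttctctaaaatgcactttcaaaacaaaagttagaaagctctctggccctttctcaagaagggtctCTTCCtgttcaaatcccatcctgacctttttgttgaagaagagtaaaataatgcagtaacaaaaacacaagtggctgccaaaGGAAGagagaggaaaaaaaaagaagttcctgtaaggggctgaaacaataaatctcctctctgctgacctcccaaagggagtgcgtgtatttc
The Emcn window held 2 matches, with their first base at -174 on the minus strand and -92 on the plus strand, and 64.1% of the 32817 promoters in the table held at least 1. The Cldn5 window held none. Neither window held AGATAA, the core of sites for GATA factors, which 3279 promoters held on either strand. The letters TATAAA of the TATA box were also missing from both, and 12.4% of promoters held them. The Cldn5 window was 59.6% G and C and the Emcn window 40.8%.

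In vehicle tumours of the dose experiment the 7 genes were at unequal levels when divided by the merged length of all annotated exons. This length can exceed that of a transcript, by amounts that differ between genes, so the order is approximate. It was 16064 bases for Vwf, 6045 for Jam2 and 1416 for Cldn5. Cdh5 was highest at a mean of 4.38 log2 CPM per kb. Pecam1 followed at 3.38, Esam at 3.00 and Cldn5 at 2.92, with SDs of 0.35, 0.42 and 0.10 (n = 4), and Esam and Cldn5 differed by less than the SD of Esam. Emcn stood at 2.24, Jam2 at 1.12 and Vwf lowest at -1.27 log2 CPM per kb. Cdh5 led and Vwf was last among the other vehicle tumours too. They were at 4.60 and -1.31 beside DC-101, and at 3.61 and -0.72 beside anti-PD1. At the low dose of the dose experiment the means were 1.10 log2 CPM per kb for Cldn5 and 0.99 for Emcn.

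**Figure D1:**
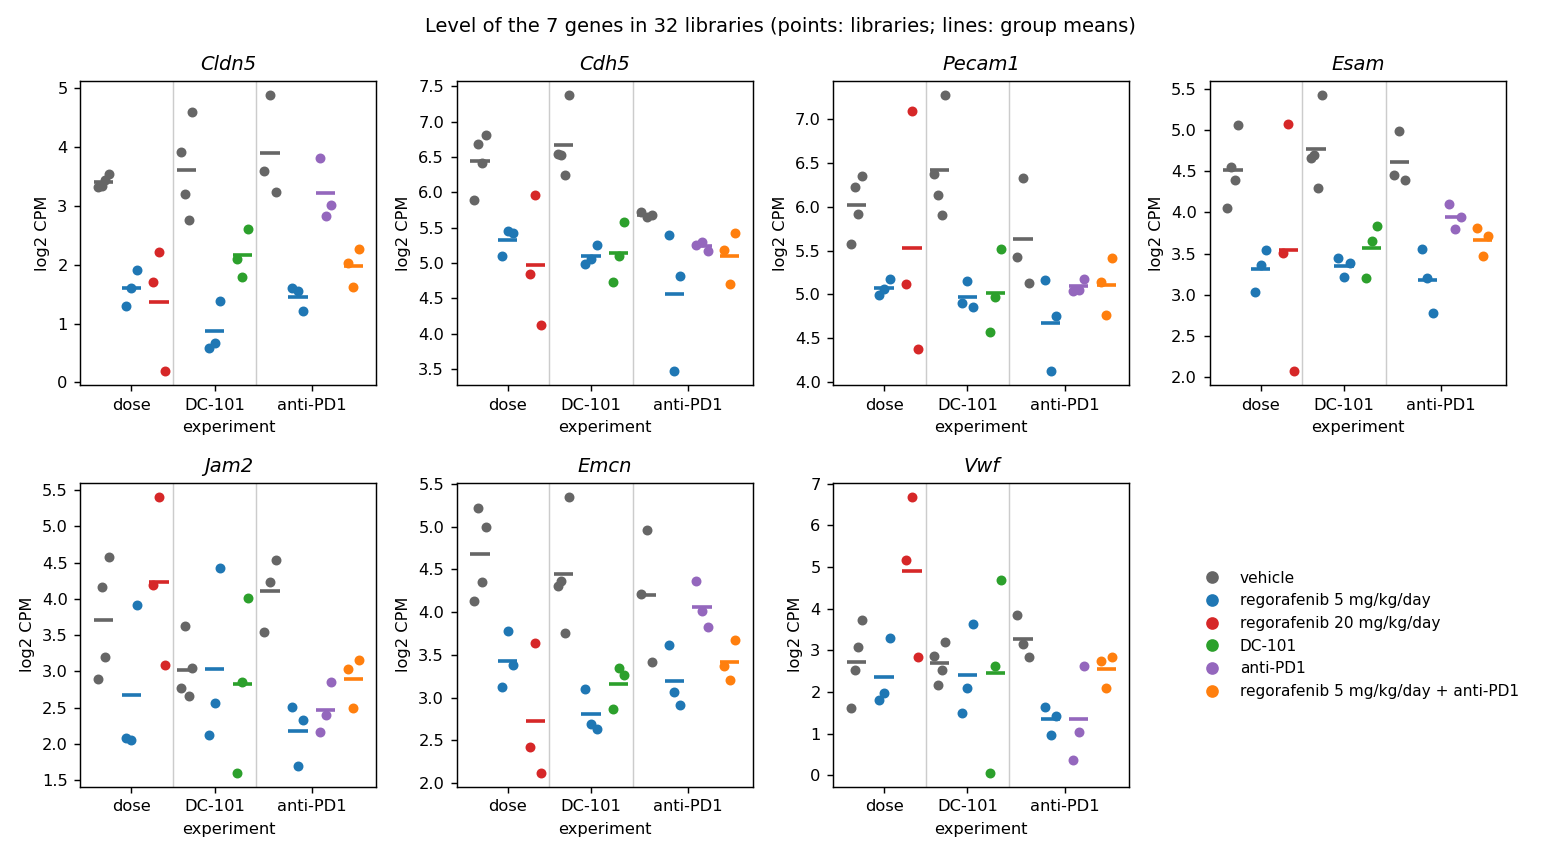
Level of each of the 7 genes (log2 CPM, y axis) in 32 libraries, ordered by experiment and coloured by treatment; points are libraries and lines are group means. Every low dose point of Cldn5 lies below the vehicle points of its experiment, whereas the high dose points of Vwf reach 6.69.

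Low dose regorafenib was the only treatment in all 3 experiments and was tested over 9 treated and 11 vehicle libraries with the experiment as a term. Of the 7 genes, 5 fell: Cldn5, Cdh5, Pecam1, Esam and Emcn. Across all genes tested, 1.64% passed the threshold (271 of 16493, adjusted p under 0.05), 111 of them higher and 160 lower. Jam2 and Vwf did not pass. In bulk tumour RNA, fewer endothelial cells and less RNA of a gene per cell cannot be told apart.

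Cldn5, the tight junction claudin, showed the largest change of the 7. Its vehicle libraries ran from 2.76 through a median of 3.44 to 4.89 log2 CPM, and its low dose libraries from 0.59 through 1.38 to 1.91, without overlap. This gap, and those of Esam and Cdh5 below, join 3 experiments scaled separately. The share of all genes with a gap was counted only within experiments. The log2 change was -2.45 ± 0.28 (SE; edgeR quasi-likelihood test, adjusted p = 0.000119). The level that remained was 18.3% of vehicle (95% interval 12.2% to 27.5%).

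Esam, an adhesion molecule of the same junctions, also had no overlap. It ran from 4.05 through 4.55 to 5.43 log2 CPM in vehicle and from 2.78 through 3.36 to 3.56 at the low dose. The log2 change was -1.38 ± 0.16 (adjusted p = 0.000148), the smallest error among the 7 genes.

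Cdh5, the cadherin of adherens junctions, ran from 5.65 through 6.42 to 7.38 log2 CPM in vehicle and from 3.47 through 5.10 to 5.46 at the low dose. These groups too were apart, by a narrow gap. It changed by -1.25 ± 0.21 on the log2 scale (adjusted p = 0.0031), to 42.2% of vehicle.

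The surface genes Emcn and Pecam1 fell by like amounts, with ranges that overlapped. Emcn ran from 3.42 through 4.35 to 5.35 log2 CPM in vehicle and from 2.63 through 3.10 to 3.78 at the low dose, a log2 change of -1.39 ± 0.23 (adjusted p = 0.00354). Pecam1 ran from 5.13 through 6.13 to 7.28 in vehicle and from 4.12 through 4.99 to 5.17 at the low dose, a log2 change of -1.17 ± 0.20 (adjusted p = 0.0040). Within single experiments these 2 genes overlapped with vehicle beside anti-PD1 and not in the other experiments. For each of the 5 genes, 9 of 9 low dose libraries were below the mean of their own vehicle group. Cdh5, Pecam1 and Emcn kept their sign without the dose experiment and without the DC-101 experiment but no longer passed (adjusted p from 0.0797 to 0.116).

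Jam2 and Vwf were more variable at the low dose. Jam2 ran from 2.66 through 3.54 to 4.58 log2 CPM in vehicle and from 1.70 through 2.33 to 4.43 at the low dose. Vwf ran from 1.61 through 2.87 to 3.85 in vehicle and from 0.96 through 1.82 to 3.64 at the low dose. Both groups overlapped, and 7 of 9 low dose libraries were below their own vehicle mean for each gene. The log2 change was -0.77 for Jam2 (95% interval -1.60 to 0.05, adjusted p = 0.359) and -0.74 for Vwf (-1.50 to 0.02, adjusted p = 0.339). With the hepatocyte gene level of each library as a covariate, Jam2 stood at -1.31 (adjusted p = 0.0539) and Vwf at -1.12 (adjusted p = 0.127), and the 5 other genes still passed.

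**Figure D2:**
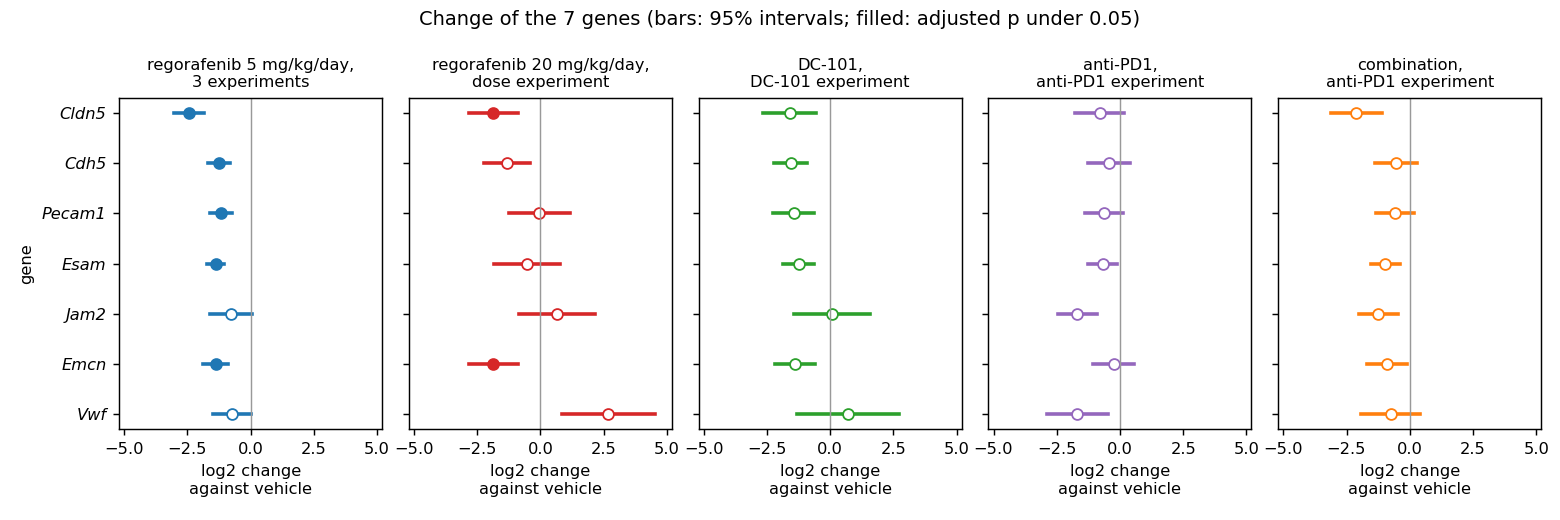
Log2 change against vehicle (x axis) of each gene (y axis) under 5 treatments, with 95% intervals as bars; filled points have an adjusted p under 0.05. The low dose panel has 5 filled points and the high dose panel 2, and Vwf lies at 2.69 at the high dose.

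To ask whether the genes moved by more than endothelial RNA as a whole, each library's level was set against the mean of 20 other pan-endothelial surface genes, among them Tie1, Kdr, Flt1 and Eng. Relative to these, Cldn5 was lower at the low dose by a further -1.57 on the log2 scale (exact permutation test within experiments, 2-sided, p = 4.08e-05, the smallest that the 24500 arrangements can give). The mean difference was -1.25 ± 0.54 (SD, n = 11) in vehicle and -2.78 ± 0.49 (n = 9) at the low dose. Cldn5 was lower in each experiment, at -1.18 in the dose experiment, -1.98 beside DC-101 and -1.56 beside anti-PD1.

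Esam (-0.59, exact permutation p = 8.16e-05), Cdh5 (-0.52, p = 0.00098), Emcn (-0.55, p = 0.00951) and Pecam1 (-0.37, p = 0.0123) were lower by smaller amounts. In the anti-PD1 experiment the relative change was -0.06 for Pecam1 and -0.10 for Emcn. Jam2 (-0.18, exact permutation p = 0.58) and Vwf (-0.06, p = 0.827) did not differ from the other endothelial genes by this test. These 7 tests set a gene against a mean, and single reference genes such as Flt1 and Icam2 fell by amounts like those of Esam, Emcn, Cdh5 and Pecam1. The calls of Cdh5, Pecam1 and Emcn were lost without the dose experiment and without the DC-101 experiment. The choice of reference mattered too. Against the median of the 20 genes, only Cldn5 of the 7 passed, and Cdh5 stood at -0.10, Esam at -0.17, Emcn at -0.13 and Pecam1 at 0.05.

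**Figure D3:**
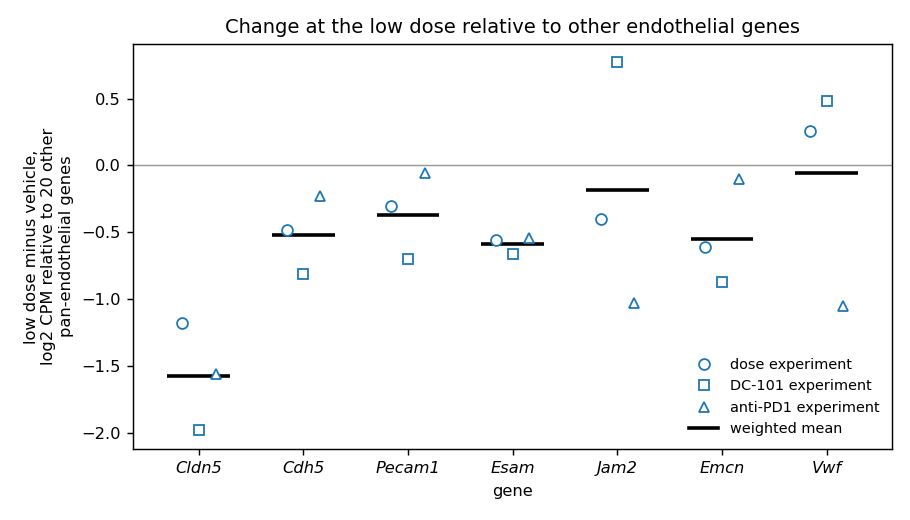
Low dose minus vehicle (y axis, log2 CPM relative to the mean of 20 other pan-endothelial genes) for each gene (x axis); open symbols are the 3 experiments and black lines their weighted mean. Cldn5 is at -1.57, and Jam2 and Vwf have symbols on both sides of 0.

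Within single experiments the low dose was compared over 3 or 4 libraries a group. Every low dose library of Cldn5, Cdh5 and Esam was below every vehicle library of its experiment in all 3 experiments. Such a gap was found for 5 of 7 genes in the dose experiment, where 6.99% of all genes tested had one. It was found for 5 of 7 beside DC-101 (9.48% of all genes) and for 5 of 7 beside anti-PD1 (7.36%). The genes with a gap were Cldn5, Cdh5, Pecam1, Esam and Emcn in the dose and DC-101 experiments, and Cldn5, Cdh5, Esam, Jam2 and Vwf in the anti-PD1 experiment.

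Cldn5 shows the pattern library by library. In the dose experiment its vehicle libraries were at 3.33, 3.34, 3.44 and 3.55 log2 CPM and its low dose libraries at 1.30, 1.61 and 1.91. In the DC-101 experiment vehicle was at 3.91, 3.20, 2.76 and 4.60 and the low dose at 0.59, 0.67 and 1.38. In the anti-PD1 experiment vehicle was at 3.59, 4.89 and 3.23 and the low dose at 1.60, 1.55 and 1.22. All 9 treated libraries were thus under 2 log2 CPM, and the vehicle libraries of the dose experiment were the most alike.

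By the edgeR test of the report, no member passed at the low dose within a single experiment. The low dose called 0% of 16525 genes in the dose experiment, 0.0248% of 16138 beside DC-101 (4 genes) and 0% of 16615 beside anti-PD1. At an unadjusted p under 0.05 there were 817, 2766 and 1964 genes, and DESeq2 called 85, 1097 and 435. Of the 7 genes, DESeq2 called Cldn5 in the dose experiment, all but Jam2 and Vwf beside DC-101, and Cldn5, Esam, Jam2 and Vwf beside anti-PD1. The log2 change of Cldn5 was -1.82 ± 0.43, -2.92 ± 0.49 and -2.66 ± 0.47 in the 3 experiments (SE).

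Jam2 and Vwf differed most in size between experiments. The low dose log2 change of Jam2 was -0.92 ± 0.69 in the dose experiment, 0.33 ± 0.66 beside DC-101 and -1.96 ± 0.36 beside anti-PD1. That of Vwf was -0.42 ± 0.82, -0.04 ± 0.90 and -2.00 ± 0.56. A test of the difference between experiments gave an unadjusted p of 0.0411 for Jam2 and 0.0513 for Vwf in edgeR, and neither held after adjustment (0.499 and 0.512). This test called 0% of 17238 genes. An unadjusted p under 0.05 was reached by 1695, and DESeq2 called 111. For the other 5 genes its unadjusted p was between 0.163 and 0.737.

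In the DC-101 experiment the low dose libraries of both genes were spread widely. The low dose libraries of Jam2 were at 2.12, 2.56 and 4.43 log2 CPM, against 2.77, 3.62, 2.66 and 3.04 in vehicle. The library at 4.43 was also the highest of the 3 for Vwf, which was at 1.50, 2.11 and 3.64, and for the hepatocyte list, whose mean was 7.58, 5.49 and 8.62. Without that library the Jam2 change was -0.72.

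At the high dose of regorafenib Cldn5 and Emcn fell, 2 of the 7, where 15.6% of 16525 genes passed (1455 higher, 1127 lower). These same 2 genes had every high dose library below every vehicle library, as did 16.6% of all genes. Whether 2 of 7 exceeds these shares was not tested. The background itself depended on the method. It was 282 genes (159 higher, 123 lower) with scaling by total counts, 1349 (458 higher, 891 lower) with limma-voom and 4 in a fit of only the groups compared. Vwf stood above the vehicle mean in 3 of 3 libraries and did not pass. DESeq2 called 5275 genes, and 4 of the 7 (Cldn5, Cdh5, Emcn and Vwf).

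Emcn was at 4.13, 5.22, 4.35 and 5.00 log2 CPM in vehicle and at 2.42, 3.64 and 2.12 at the high dose. Its log2 change was -1.86 ± 0.43 (SE, edgeR, adjusted p = 0.0365). Cldn5 was at 1.70, 2.21 and 0.19 at the high dose, a change of -1.86 ± 0.43 (adjusted p = 0.0366). The third library had the least of both genes. Both calls were lost when any vehicle library or the first high dose library was left out (adjusted p from 0.0533 to 0.0894) and with the hepatocyte covariate (Cldn5 -2.55, adjusted p = 0.0518, and Emcn -2.16, adjusted p = 0.0977).

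Cdh5 was at 4.84, 5.97 and 4.13 log2 CPM at the high dose, against 5.89, 6.68, 6.42 and 6.81 in vehicle. One library lay just inside the vehicle range, and the log2 change was -1.31 ± 0.40 (adjusted p = 0.0526). Pecam1 and Esam depended on the second high dose library. Pecam1 was at 5.12, 7.09 and 4.37 and Esam at 3.51, 5.07 and 2.07, the second library of each above every vehicle library of the dose experiment. Their log2 changes were -0.04 ± 0.54 and -0.52 ± 0.57, and without that library Pecam1 stood at -1.24 (adjusted p = 0.047) and 4 of the 7 genes passed, where 537 of all genes did (2582 with every library).

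Vwf, the stored clotting protein, did not pass at the high dose. Its vehicle libraries were at 1.61, 2.53, 3.07 and 3.72 log2 CPM, its low dose libraries at 1.82, 1.97 and 3.29, and its high dose libraries at 5.16, 6.69 and 2.85. The first 2 high dose libraries were above every vehicle library, and the third lay among them. The log2 change against vehicle was 2.69 ± 0.82 (6.46-fold, 95% interval 0.84 to 4.54 on the log2 scale, adjusted p = 0.0525). Without the third library it was 3.18 (adjusted p = 0.0106), where 7030 of all genes passed. Without the second it was 1.51 (adjusted p = 0.183), where 537 passed.

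Markers of normal liver were also lowest in the third of these libraries. Averaged over 15 hepatocyte genes, log2 CPM stood at 11.81, 9.39 and 6.55 in them, against 4.30 to 7.45 in vehicle. That of 12 liver sinusoidal genes was 4.52, 3.55 and 1.03, against 2.22 to 3.97. With the hepatocyte covariate the Vwf change was 1.06 (adjusted p = 0.560). The first library also had the lowest TMM factor of the series, 0.678. Jam2 was at 4.19, 5.41 and 3.09 at the high dose against 2.90, 4.17, 3.20 and 4.58 in vehicle, a log2 change of 0.66 ± 0.67 (adjusted p = 0.483) that became -0.68 with the hepatocyte covariate.

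In the direct test of high against low dose, none of the 7 genes passed. Of all genes, 4.22% did (288 higher, 409 lower, or 59 and 139 with scaling by total counts). Of the 16525 genes, 4842 were at an unadjusted p under 0.05, and DESeq2 called 3059, Vwf among them. Cldn5 differed by -0.04 (95% interval -1.03 to 0.95) and Cdh5 by -0.16 (-1.10 to 0.78), so neither direction was excluded. Vwf differed by 3.11 ± 0.93 (adjusted p = 0.0869) and Jam2 by 1.58 ± 0.74 (adjusted p = 0.186).

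DC-101 blocks VEGFR2 alone, and its comparison asks how far that block goes with the same changes. Of the 7 genes, 5 had every DC-101 library below every vehicle library (8.19% of all genes did): Cldn5, Cdh5, Pecam1, Esam and Emcn. Cdh5 was at 6.55, 6.53, 6.25 and 7.38 log2 CPM in vehicle and at 4.73, 5.10 and 5.58 under DC-101. Its change was -1.56 ± 0.29, and those of Cldn5 (-1.60 ± 0.46), Pecam1 (-1.45 ± 0.35), Emcn (-1.40 ± 0.35) and Esam (-1.25 ± 0.27) were of like size.

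None of these passed over all genes in edgeR (adjusted p from 0.309 to 0.315), and 0% of 16138 genes did, with 2131 at an unadjusted p under 0.05. DESeq2 called 372 genes, these 5 among them. Jam2 (0.06 ± 0.66) and Vwf (0.71 ± 0.89) were spread widely. Vwf was at 0.06, 2.62 and 4.68 log2 CPM under DC-101 and the hepatocyte list at 1.65, 8.08 and 9.38 in the same libraries and the library with the least and the library with the most were the same for both. In the 4 vehicle libraries the hepatocyte list ran from 0.07 to 6.34.

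Against low dose regorafenib, the 3 DC-101 libraries had Cldn5 at 2.10, 1.79 and 2.61 log2 CPM. The 3 low dose libraries of this experiment were at 0.59, 0.67 and 1.38. The difference was 1.32 ± 0.49 (95% interval 0.23 to 2.42), with an unadjusted p of 0.023 and an adjusted p of 0.510 in edgeR. Cdh5 (0.07, interval -0.61 to 0.75), Pecam1 (0.10, -0.72 to 0.92), Esam (0.23, -0.40 to 0.87) and Emcn (0.35, -0.47 to 1.18) had intervals on both sides of 0. The comparison called 0% of genes. An unadjusted p under 0.05 was reached by 1364, and DESeq2 called 187.

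In the anti-PD1 experiment the genes were compared between 3 libraries of each group. Anti-PD1 alone left Cldn5 at 3.82, 2.83 and 3.01 log2 CPM, overlapping vehicle at 3.59, 4.89 and 3.23. The combination had it at 2.03, 1.62 and 2.27. Cldn5 changed by -0.80 ± 0.44 under anti-PD1 and by -2.11 ± 0.46 under the combination, and the combination differed from anti-PD1 by -1.31 ± 0.45 (edgeR, unadjusted p = 0.0136, adjusted p = 0.475). The Cldn5 difference between combination and low dose regorafenib was 0.55 (95% interval -0.44 to 1.53).

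Jam2 and Vwf had lower means than vehicle under anti-PD1 without regorafenib, but neither passed in edgeR. Jam2 was at 3.54, 4.23 and 4.54 log2 CPM in vehicle, 2.16, 2.40 and 2.85 under anti-PD1, 2.51, 1.70 and 2.33 at the low dose and 3.03, 2.50 and 3.16 in the combination. Each treated group lay below the vehicle libraries. Its log2 change was -1.68 ± 0.36 under anti-PD1 (adjusted p = 0.249) and -1.25 ± 0.35 in the combination (adjusted p = 0.475).

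Vwf was at 3.85, 3.16 and 2.83 in vehicle, 0.38, 1.05 and 2.63 under anti-PD1, 1.65, 0.96 and 1.43 at the low dose and 2.74, 2.10 and 2.84 in the combination. The anti-PD1 and low dose libraries were all below vehicle, and the combination overlapped it. Its change under anti-PD1 was -1.70 ± 0.55 (adjusted p = 0.254). In the same libraries the mean of the 12 sinusoidal genes was 3.40 to 4.04 in vehicle, 1.55 to 2.67 under anti-PD1 and 1.02 to 2.53 at the low dose. That of the hepatocyte genes was 7.44 to 7.83, 4.16 to 5.79 and 4.18 to 7.31. In the combination these means were 2.56 to 3.62 for the sinusoidal and 6.16 to 9.13 for the hepatocyte genes. With the hepatocyte covariate the changes under anti-PD1 were -1.70 for Jam2 and -1.58 for Vwf.

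The other genes were closer to vehicle under anti-PD1, at -0.44 ± 0.38 for Cdh5, -0.63 ± 0.35 for Pecam1, -0.69 ± 0.27 for Esam and -0.25 ± 0.37 for Emcn. In the combination they were at -0.55 ± 0.38, -0.59 ± 0.35, -0.97 ± 0.27 and -0.90 ± 0.37. Of the 7 genes, 4 lay wholly below vehicle under anti-PD1 (9.2% of all genes did), namely Cdh5, Esam, Jam2 and Vwf, and 4 in the combination (8.12%), namely Cldn5, Cdh5, Esam and Jam2. All 4 comparisons of this experiment beyond the low dose called 0% of 16615 genes. The counts at an unadjusted p under 0.05 were 2269 for anti-PD1, 1362 for the combination, 1443 for combination against anti-PD1 and 605 for combination against the low dose, and DESeq2 called 614, 150, 192 and 0 genes. Among the 7, DESeq2 called Jam2 under anti-PD1 and Cldn5 and Esam in the combination. The 3 treated groups of this experiment share their vehicle libraries, as do both treated groups of each other experiment.

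Over all 32 libraries the 7 genes formed a set of 5 and a pair. With each experiment's mean taken off, Pearson's r of the 10 pairs among Cldn5, Cdh5, Pecam1, Esam and Emcn was 0.78 to 0.92 (Spearman's rho 0.77 to 0.93). Jam2 and Vwf were alike at r = 0.82 (rho 0.87), and at 0.84 within the dose experiment, 0.84 beside DC-101 and 0.80 beside anti-PD1. Jam2 or Vwf with one of the 5 gave 0.04 to 0.56. Within the dose and anti-PD1 experiments the sets were less distinct. In the dose experiment the 5 gave 0.69 to 0.97 among themselves and -0.18 to 0.72 with the pair, and beside anti-PD1 0.60 to 0.93 and 0.25 to 0.77. Beside DC-101 these ranges lay apart, at 0.88 to 0.99 and 0.07 to 0.38. Leaving out the 2 libraries farthest from the median of the first gene of a pair gave 0.70 to 0.91, 0.81 and 0.04 to 0.62. With each group's mean taken off, the ranges drew closer, at 0.55 to 0.89, 0.80 and 0.33 to 0.66. These values describe libraries that share treatments, and they carry no p. The grouping was made after the values were seen.

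Over all libraries the pair had the higher likeness to liver sinusoidal genes. With the mean of the 12 sinusoidal genes, r was 0.72 for Jam2 and 0.71 for Vwf, and 0.00 to 0.31 for the other 5. The low values of the 5 joined experiments of opposite sign. They were -0.41 to -0.28 beside DC-101, 0.21 to 0.59 in the dose experiment and 0.31 to 0.71 beside anti-PD1, where Jam2 was at 0.84 and Vwf at 0.88. With the mean of the 15 hepatocyte genes it was 0.46 for Jam2 and 0.53 for Vwf, and -0.45 to -0.17 for the others, whose values were -0.68 to -0.58 beside DC-101 and 0.00 to 0.39 beside anti-PD1. With the 20 other pan-endothelial genes, r over all libraries was 0.78 to 0.93 for the 5, 0.68 for Jam2 and 0.58 for Vwf. That order did not hold throughout. By rho Jam2 (0.78) stood above Cldn5 (0.77) and Emcn (0.73), and beside anti-PD1 the r of Jam2 (0.86) and Vwf (0.77) exceeded that of Cldn5 (0.73) and Emcn (0.69). For Vwf and the hepatocyte genes, r was 0.79 in the dose experiment, 0.37 beside DC-101 and 0.60 beside anti-PD1. The part of hepatocyte or sinusoidal content in each of these values was not tested beyond the hepatocyte covariate.

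**Figure D4:**
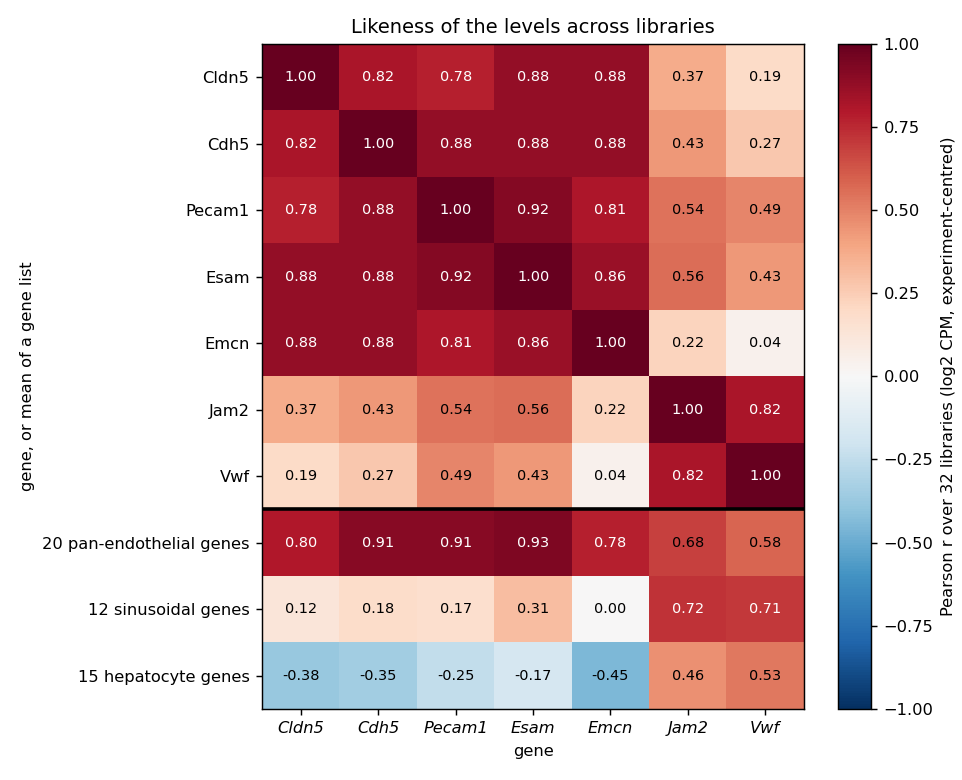
Pearson's r over 32 libraries (colour and printed value, log2 CPM with experiment means removed) between the 7 genes (x axis) and, on the y axis, the same genes and the means of 3 gene lists. The block of 5 genes runs from 0.78 to 0.92, and Jam2 and Vwf share 0.82.

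The genes most like each member were ranked over 12853 genes. For Emcn they were Mcam (r = 0.96), Afap1l1 and Myzap, and for Cldn5 they were Igfbp3 (0.91), Afap1l1 and Mcam. For Cdh5 they were Trp53i11 (0.95), Nos3, the endothelial nitric oxide synthase, and Flt1, a VEGF receptor. Pecam1 was most like Mmrn2 (0.93), the ETS factor Erg and Adgrf5, and Esam most like Nid2 (0.92), Myct1 and Myzap. Jam2 had Tfpi (0.87), an inhibitor of coagulation, with Igfbp7 and Pla1a. Vwf had Itga1 (0.90), a collagen receptor subunit, with Lpl and Epas1. No gene was among the first 3 of both the pair and the other 5.

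**Figure D5:**
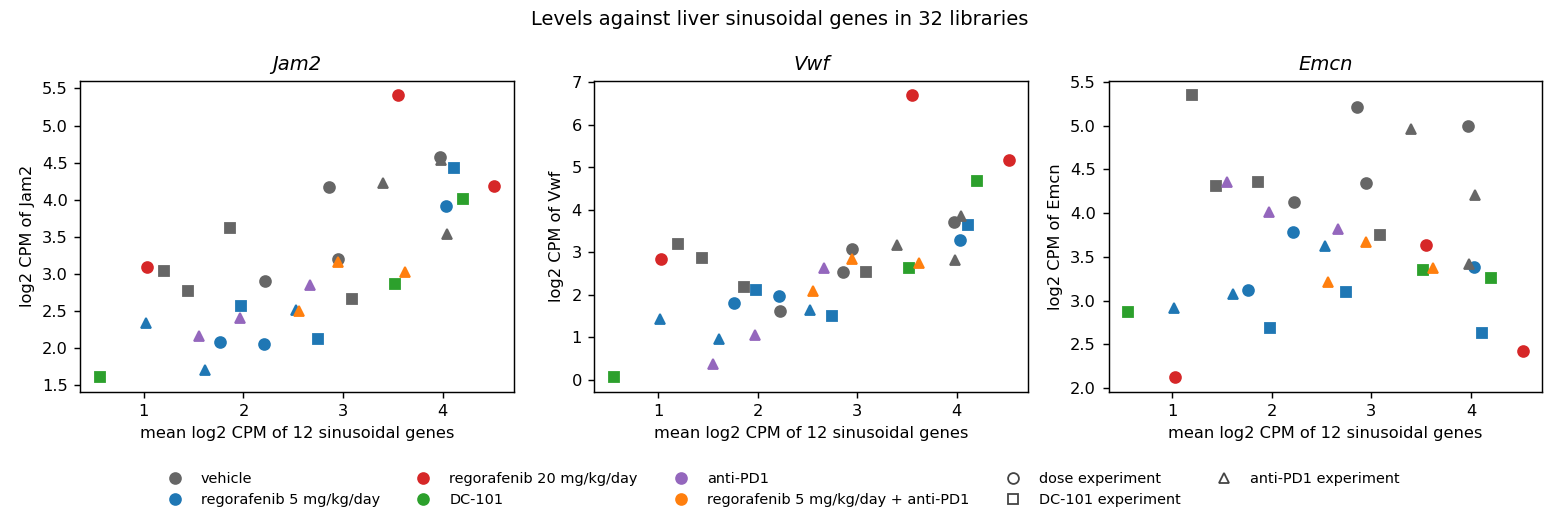
Log2 CPM of Jam2, Vwf and Emcn (y axes) against the mean log2 CPM of 12 liver sinusoidal genes (x axis) in 32 libraries, coloured by treatment with a symbol for each experiment. Jam2 and Vwf climb with the sinusoidal mean (r = 0.72 and 0.71), and Emcn is at r = 0.00 over all libraries (0.21 in the dose experiment, -0.41 beside DC-101 and 0.31 beside anti-PD1).

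The wider endothelial and junction programme was read from named lists at the low dose over 3 experiments, with a median log2 change of 0.03 over all genes. Of the 20 other pan-endothelial surface genes, 9 fell and 1 rose, with a median of -0.83, where 1.64% of all genes tested passed. Among those that passed, the VEGF receptor Flt1 (-1.61 ± 0.19), Icam2 (-1.35 ± 0.20), Mcam (-1.28 ± 0.16) and Tspan18 (-1.24 ± 0.28) fell most, and Cd34 rose by 0.55 ± 0.14. Of 22 junction partners, such as the scaffold Tjp1 and the catenins, none passed (median -0.15), and Cgn (0.66) and Ctnnb1 (-0.16) had the smallest p. Many of these partners are also made by epithelial and tumour cells. Of 7 genes tested from a list of Weibel-Palade body and inducible adhesion genes, Angpt2, a vessel destabilising ligand, fell (-1.09 ± 0.18) and Vcam1 rose (0.67 ± 0.12).

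Lists of other cells were read in the same way at the low dose. None of 12 sinusoidal genes passed (median -0.04, with Flt4 at -1.11 and Lyve1 at -1.71 the smallest p), and 6 were below 0. None of 4 lymphatic genes passed (0.60, Pdpn at 0.86 and Nr2f2 at -0.41), and none of 5 platelet genes (-0.66, Pf4 at -1.10 and Itga2b at -0.48). Of 8 leukocyte genes none passed (0.36, Ptprc at 0.35 and Adgre1 at 0.38), and 1 was below 0. Of 10 pericyte and smooth muscle genes, Kcnj8 fell (-1.77 ± 0.30, list median -0.67). Of 15 hepatocyte genes, Ass1 rose (0.93 ± 0.15), and the median was 1.46. The summed hepatocyte level ran from 67.2 to 89579 CPM over the libraries. The 10 platelet genes summed to 8.31 to 210 CPM over the libraries. In the high dose libraries they summed to 10.04 to 26.6 CPM, against 12.99 to 20.32 in vehicle of the same experiment, and 1 of the 10 (Gp1bb) was at 0 in every library of both groups. The highest sum, 26.6, was in the first high dose library, where Vwf was at 5.16, and the second, where Vwf was at 6.69, had 12.98. The medians of 4 of these lists differed in sign between experiments. Beside anti-PD1 the low dose median was -1.93 for the sinusoidal list, with 12 of 12 genes below 0, -1.44 for the hepatocyte, -1.36 for the lymphatic and -2.73 for the platelet list. Beside DC-101 these medians were 0.80, 3.23, 1.65 and 0.05, and in the dose experiment -0.18, 1.59, 0.32 and -0.32. Whether other cell types took part in the changes of Pecam1 and Vwf was not tested.

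At the high dose, the lists gave other counts. Of the junction partners 5 rose, among them Ocln (4.06 ± 1.11), Cgnl1 (2.77 ± 0.81), Cgn (2.49 ± 0.50) and Cdh1 (1.87 ± 0.49), which epithelial cells such as hepatocytes also make, and Jup fell (-0.87 ± 0.22), with a list median of 0.53. Of the 20 pan-endothelial genes, 4 fell: Mcam (-1.83 ± 0.34), Flt1 (-1.71 ± 0.44), Icam2 (-1.69 ± 0.50) and Cd93 (-1.64 ± 0.34), with a median of -0.41, a share of the list near that of all genes. These high dose calls come from a background of 2582 genes that shrank to 121 with the hepatocyte covariate, 4 in a fit of only the groups compared and 1 with a replicate block. No Weibel-Palade gene passed (median -0.10, Icam1 at 1.03 and Selp at 2.59), and 4 of 7 were below 0. No sinusoidal gene passed (0.55, Stab1 at -0.97 and Wnt2 at 2.42). No lymphatic gene passed (1.11, Prox1 at 3.46 and Reln at 2.43), and 2 of 4 were below 0. Of 5 platelet genes Pf4 fell (-1.04 ± 0.31) and was the 1 gene below 0, the list median being 0.52. Of 10 pericyte genes Rgs5 rose (2.37 ± 0.58), and 4 were below 0 (median 0.59). Of the hepatocyte genes Hpd (6.35 ± 1.77) and Cyp2e1 (5.41 ± 1.54) rose (median 4.11). Of 8 leukocyte genes, Itgam (-2.80 ± 0.36), Csf1r (-1.68 ± 0.33), Adgre1 (-1.21 ± 0.32) and Ptprc (-1.03 ± 0.30) fell and Cd3e rose (1.86 ± 0.41). Among all genes 15.6% passed here.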

How the data were processed

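RNA of 32 tumours was sequenced as stranded, poly(A)-selected, paired-end libraries. Per the labels and the study's methods, the authors trimmed reads with cutadapt 2.4 and aligned them to GRCm38 with STAR 2.7.2a, and deposited raw read counts per gene (Gencode M19) in 1 table for each of 3 experiments. Which strand was counted is not given in the sources used here. Reads of tumour, vessel and surrounding liver cells are summed in each count. Loci were taken from Gencode M21, which matched 54409 of 54446 identifiers (99.93%).

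Genes were filtered by expression (filterByExpr, minimum count 10, total 15), scaled by TMM and tested with the robust quasi-likelihood test of edgeR 4.0.16 in R 4.3.3, within each experiment and, for the low dose, over 3 experiments with an experiment term. P-values were adjusted over all genes by the Benjamini-Hochberg method, with a threshold of 0.05. DESeq2 1.42.0 and limma-voom (limma 3.58.1), other scalings and filters, replicate blocks, single libraries left out and a hepatocyte covariate were alternatives. The text names the 7 genes in every comparison, the first 3 genes by likeness to each, and for each list up to 4 genes that passed, ranked by size, or where none passed the smallest p. The members and lists were chosen with earlier results of these data known. Replicates of a group differed by more than sampling noise. The tests were tested on simulated data.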

Additional observations from a re-analysis of the deposited data

How the results depend on the processing

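Of the recomputed log2 changes of the 7 genes, 1309 kept their direction and their side of the threshold, 27 passed only in the alternative, 25 no longer passed and 39 turned. Counts of the 7 genes called moved by more than 1.5 times in 27 cases and not in 227. The cause of these shifts was not tested. At the low dose over 3 experiments 5 genes passed, 2 (Cldn5 and Esam) without the dose experiment and 2 without the DC-101 experiment, and 5 with a replicate block. At the high dose 2 passed, 1 with scaling by total counts, 0 without a filter, 4 by DESeq2, 0 with a replicate block, 0 with the hepatocyte covariate, 0 in a fit of only the groups compared, and 0 to 4 with 1 library left out (0 without any vehicle library or high dose library 1, when 15 to 83 and 956 of all genes passed, and 4 without high dose library 2, when 537 did). High against low dose called 0, and 1 by DESeq2, where 3059 of all genes passed. With 1 library left out it called 0 to 1 (Vwf without high dose library 3). Over the alternatives, counts of all genes for this comparison ran from 0 to 4488. At the low dose DESeq2 called 1 in the dose experiment, 5 beside DC-101 and 4 beside anti-PD1. It called 5 under DC-101, 1 under anti-PD1 and 2 in the combination, against 0. The low dose called 1 in the dose experiment with only the groups compared, where 75 of all genes passed. It called 1 in the anti-PD1 experiment without a filter, where 10 of all genes passed. Relative to other endothelial genes 5 passed, 1 against the median, 2 without the dose experiment and 2 without the DC-101 experiment.

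With a replicate block, Vwf at the low dose of the dose experiment was 0.04, and in the DC-101 experiment Jam2 was -0.13 at the low dose and -0.38 under DC-101. With limma-voom Jam2 was -0.06 at the low dose of that experiment and -0.27 under DC-101, and Vwf was -0.35 under DC-101 and -0.03 for DC-101 against low dose. With the hepatocyte covariate Jam2 was -0.68 at the high dose, -0.89 at the low dose of the DC-101 experiment and -1.12 under DC-101, Vwf was -1.35 under DC-101, and Cdh5 was 0.07 for combination against anti-PD1. With 1 library left out, the high dose change ran from -1.24 to 0.36 for Pecam1 and -0.12 to 1.03 for Jam2. High against low dose ran from -0.53 to 0.32 for Cldn5, -0.82 to 0.14 for Cdh5, -0.29 to 1.33 for Pecam1 and -0.39 to 1.15 for Esam. The low dose of the DC-101 experiment ran from -0.72 to 0.73 for Jam2 and -0.93 to 0.34 for Vwf, and DC-101 from -0.72 to 0.52 and -0.92 to 1.29. DC-101 against low dose ran from -0.18 to 0.28 for Cdh5, -0.18 to 0.33 for Pecam1, -1.07 to 0.79 for Jam2 and -0.89 to 1.63 for Vwf. Emcn under anti-PD1 ran from -0.55 to 0.21, combination against anti-PD1 from -0.28 to 0.06 for Cdh5 and -0.13 to 0.20 for Pecam1, and combination against low dose from -0.01 to 0.83 for Cdh5. Relative to other endothelial genes, Pecam1 was 0.05, Jam2 0.24 and Vwf 0.36 against the median, and Jam2 0.19 and Vwf 0.37 without the anti-PD1 experiment. With 1 library left out Vwf ran from -0.24 to 0.07.

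Over all genes the count ranged from 34 to 903 at the low dose over 3 experiments (271 in the report), 1 to 7030 at the high dose (2582) and 0 to 4488 for high against low dose (697). Same-numbered libraries were not treated as pairs. Of them, 2 of 9 pairs in the dose experiment, 4 of 9 beside DC-101 and 6 of 18 beside anti-PD1 correlated above 0.1. Their r ran from -0.72 to 0.56, -0.46 to 0.67 and -0.28 to 0.62. Libraries of different number were not compared, so pairing is not excluded. Depth limits Vwf and Cldn5, with 22 and 27 counts in their lowest libraries.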
